A study of Macaca mulatta with 38 samples.

Results

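The cultures compared here were neural stem cells from the cortex of rhesus macaque (Macaca mulatta) fetuses at embryonic day 42 (E42), dissected as an Anterior and a Posterior part. Of the 38 RNA-seq libraries of the series 12 are described: 6 of the transition phase (days in vitro 6, 7 and 8) and 6 of the terminal phase (days 11, 14 and 17), with 1 library per region and day. All 12 came from wild-type cells. Cells of both phases had been grown on fibronectin-coated plates at 5% oxygen with daily FGF2 up to day 5, and then without FGF2 in NeuroBasal medium with B27, BDNF and NT-3. The comparison is therefore between early and late differentiation, and neither phase holds cells still in FGF2. RNA was pooled from 2 wells per condition, selected by poly(A) and sequenced with strand information. The 12 E77 libraries used beside them came from Frontal and Occipital cortex on the same days in the same media.

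Cortical radial glia are the stem cells of the developing cortex. They divide at the ventricular surface, hold one another in the progenitor state by Notch signalling between neighbours, and give rise to neurons directly or through intermediate progenitors, and later to astrocytes and oligodendrocyte precursors. FGF2 keeps such cells dividing in a dish, and its withdrawal lets them leave the cell cycle. New neurons first switch on cytoskeletal and RNA-binding proteins and then the machinery of vesicle release, receptors and ion channels.

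Separate animals are not named in the labels for the libraries of a phase. Each region appears there as 1 culture followed over days, so the p-values below measure the spread between days of that culture. Region cannot be told apart from the dissection or the culture run. In bulk RNA, fewer cells of a type and less RNA per cell cannot be told apart. Counted reads per library ran from 25924161 to 38482028 in the transition and from 20149635 to 56363300 in the terminal phase. The defining markers of radial glia were present in all 12 libraries: SOX2 stood at 401 to 700.2 CPM (read counts scaled to library size), PAX6 at 150.1 to 240.2 CPM and VIM at 1293 to 3058 CPM. The Anterior libraries also carried a large signal from fibroblast and pericyte markers, with a sum over 14 genes of 15579 to 26070.0 CPM in the transition and 17379 to 28943 CPM in the terminal phase. The same sum was 77.8 to 98.2 and 63.9 to 66.8 CPM in the Posterior libraries, so results are given for each region where they differ. In a principal component analysis of the 1000 most variable genes the first component (82.8% of the variance) separated the regions and the second (9.48%) followed the day.

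Between the phases 5779 of 19709 genes tested passed an adjusted p of 0.05 (29.3%; edgeR quasi-likelihood test with region as a block, Benjamini-Hochberg). Of these, 2952 (15%) stood higher in the terminal libraries and 2827 (14.3%) stood lower, and the median log2 fold change over all genes tested was -0.01. Fold changes here are log2 of terminal over transition, with the standard error (SE) of the fit over 6 against 6 libraries. More genes passed in Posterior than in Anterior at the same threshold, each as a contrast of 3 against 3 libraries in 1 fit of all 12. In Posterior 3442 genes passed (17.5%), 1969 higher (9.99%) and 1473 lower (7.47%), and in Anterior 1815 (9.21%), 981 higher (4.98%) and 834 lower (4.23%). Fitted on its own 6 libraries, Anterior had 563 and 408 and Posterior 1732 and 1302. This difference in counts was not itself tested. With 1 value per day, the mean of both regions tested with limma, 1618 genes were higher and 1160 lower, and 2686 of the 5779 kept their call and direction. For 1101 genes (5.59%) the 6 libraries of one phase lay wholly above the 6 of the other, 660 of them higher in the terminal phase (3.35%) and 441 lower (2.24%). Within each region the phases did not overlap for 3145 genes (16%), 1708 higher (8.67%) and 1437 lower (7.29%).

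**Figure D1:**
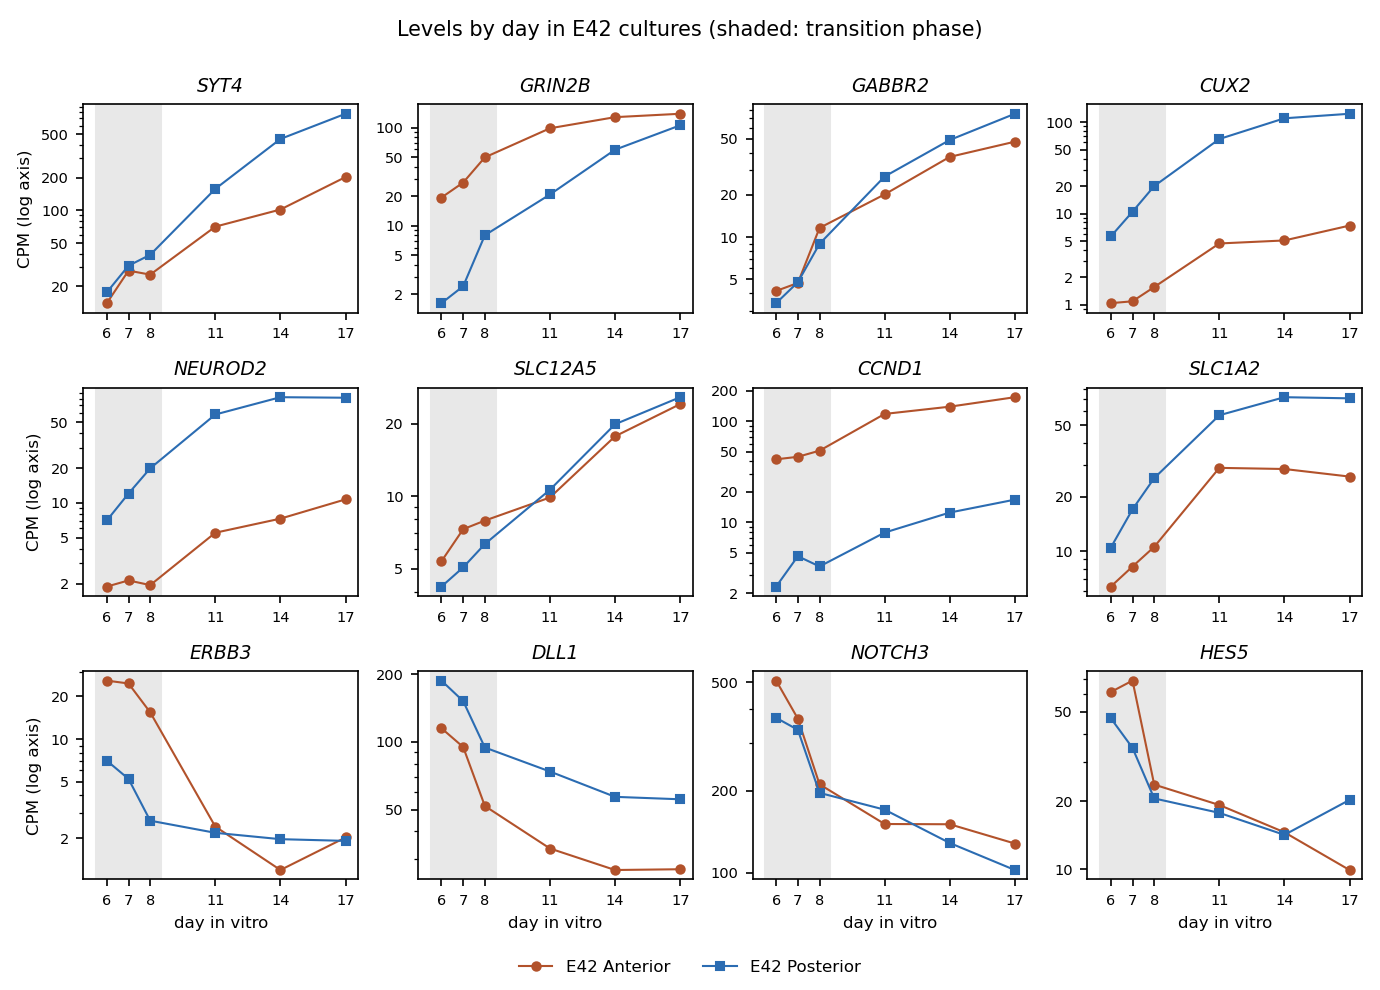
CPM on a log axis against day in vitro for 12 genes, with circles for E42 Anterior, squares for E42 Posterior and the transition days shaded. The first 8 genes stood higher on days 11 to 17 than on days 6 to 8 within each region, and ERBB3, DLL1, NOTCH3 and HES5 stood lower. For SYT4, GRIN2B, GABBR2, CUX2, ERBB3 and DLL1 this separation was a condition of being named.

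The 12 largest rises of abundant genes were those of SULT1E1, SYT4, PTPN5, GDF7, FRMD7, GRIN2B, RIMS4, GABBR2, CUX2, NPTX1, PLPPR4 and GRIN2A. The largest rises and falls were named only among genes whose phases did not overlap within either region. Their separation within regions is therefore a condition and not a result. SYT4, a vesicle protein of the synaptotagmin family, was at 14.02, 27.9 and 25.7 CPM on days 6, 7 and 8 and 70.9, 102 and 202 CPM on days 11, 14 and 17 in Anterior, and at 17.6, 31.0 and 39.0 and then 158, 454 and 773 CPM on the same days in Posterior. Every terminal library was above every transition library, and the level went on rising to day 17 in both regions (3.24 ± 0.47, adjusted p = 0.00105). GRIN2B, the NMDA receptor subunit that predominates before birth, was at 19.4, 27.6 and 49.8 CPM on days 6, 7 and 8 and 98.4, 128 and 138 CPM on days 11, 14 and 17 in Anterior. In Posterior it started far lower and passed through 1.63, 2.43 and 8.03 and then 20.9, 59.6 and 106 CPM, so the phases overlapped across both regions (2.87 ± 0.54, adjusted p = 0.00308). GRIN2A, the subunit that joins or replaces it as synapses mature, rose by 2.61 ± 0.42 (adjusted p = 0.00151) with no overlap between the phases. GABBR2, a subunit of the GABA-B receptor, was at 4.14, 4.72 and 11.6 and then 20.2, 37.3 and 47.8 CPM in Anterior and 3.39, 4.78 and 8.97 and then 27.0, 49.2 and 75.5 CPM in Posterior (2.77 ± 0.38, adjusted p = 0.000921), again without overlap. NPTX1, a secreted pentraxin that clusters AMPA receptors, ranged from 1.74 to 2.54 CPM (median 2.02) in the transition and from 4.87 to 38.2 CPM (median 12.2) in the terminal phase (2.72 ± 0.39, adjusted p = 0.00104). PTPN5, a phosphatase of glutamate receptors and kinases, rose by 3.21 ± 0.43 and FRMD7, which acts in neurite growth, by 3.01 ± 0.41. RIMS4, of the presynaptic active zone, rose by 2.78 ± 0.53, and PLPPR4, a postsynaptic phospholipid-binding protein, by 2.67 ± 0.54 (adjusted p of the 4 from 0.000836 to 0.00424).

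SULT1E1, an oestrogen sulphotransferase, passed through 1.77, 1.47 and 88.7 and then 271, 439 and 585 CPM in Anterior, and stood between 0 and 0.335 CPM on every day in Posterior (3.84 ± 1.09, adjusted p = 0.0204 over both regions). Within Anterior alone its change did not pass (3.83 ± 1.28, adjusted p = 0.0924), with day 8 far above days 6 and 7. Without Anterior day 8 its change over both regions was 8.05, and with the other single libraries left out it ran from 3.29 to 4.09. GDF7, a roof plate member of the BMP family, was at 0.464, 0.576 and 1.98 and then 6.79, 17.7 and 29.9 CPM in Anterior and 0.739, 0.551 and 0.726 and then 1.30, 1.48 and 3.04 CPM in Posterior (3.03 ± 0.61, adjusted p = 0.00413). The difference between its regional changes did not pass (-2.67 ± 0.90, adjusted p = 0.325) but passed with day as a block (-2.73 ± 0.52, adjusted p = 0.0438).

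Among abundant genes named on the same condition, the largest fall was that of ERBB3, the neuregulin receptor found in glial and neural crest lineages. It was at 25.9, 24.7 and 15.4 CPM on days 6, 7 and 8 and 2.41, 1.19 and 2.02 CPM on days 11, 14 and 17 in Anterior and at 7.04, 5.23 and 2.65 and then 2.18, 1.96 and 1.91 CPM in Posterior. All terminal libraries stood below all transition libraries (-2.49 ± 0.43, adjusted p = 0.00205). PNOC, the precursor of the peptide nociceptin, fell from a median of 25.4 to 8.45 CPM (-1.89 ± 0.30, adjusted p = 0.00147). GSX2, a transcription factor of ventral forebrain progenitors, fell from 20.3 to 7.85 CPM (-1.43 ± 0.24, adjusted p = 0.00178). COL22A1, a collagen, and ARAP3, a regulator of small GTPases, fell without overlap as well, by 1.91 ± 0.28 and 1.41 ± 0.19 on the log2 scale. SLC25A18, a mitochondrial glutamate carrier, fell by 1.40 ± 0.21, RHBDL3, a rhomboid-family protein, fell by 1.41 ± 0.25 and PLEKHB1, a pleckstrin homology protein, fell by 1.40 ± 0.21. LAMC3, a laminin chain, was an Anterior transcript, at 58.4, 24.2 and 21.1 and then 8.93, 13.3 and 12.1 CPM there and at most 0.535 CPM in Posterior (-1.62 ± 0.32, adjusted p = 0.00372). SLC51A, a steroid and bile acid transporter, passed through 59.9, 99.7 and 26.4 and then 21.0, 16.05 and 16.5 CPM in Anterior and 38.5, 61.9 and 17.3 and then 14.6, 12.5 and 7.89 CPM in Posterior (-1.78 ± 0.34, adjusted p = 0.00305), with its highest level on day 7 in both. NKAIN4, a partner of the sodium pump, fell by 1.67 ± 0.23 on the log2 scale, and its values are taken up with the age comparison.

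General neuronal genes rose, and none of those listed fell. Of 17 pan-neuronal genes 12 were higher and 0 lower (median 0.69, against -0.01 over all genes). RBFOX3, the gene of the NeuN antigen of maturing neurons, rose by 2.12 ± 0.32, from 0.985, 1.55 and 1.49 to 4.73, 9.23 and 12.95 CPM in Anterior and from 3.67, 8.08 and 10.5 to 21.9, 23.0 and 23.1 CPM in Posterior. Posterior levels had flattened by day 11, while Anterior levels were still climbing on day 17. MAPT, which encodes tau, was at 143, 158 and 229 and then 302, 349 and 394 CPM in Anterior and 129.7, 144 and 190.0 and then 329.9, 452 and 610.3 CPM in Posterior (1.28 ± 0.19, adjusted p = 0.00104), with no overlap. MYT1L, a factor that represses non-neuronal genes, rose by 1.34 ± 0.19 and NSG2, an endosomal protein of neurons, by 1.70 ± 0.30 (adjusted p = 0.00103 and 0.0022). The 5 that did not pass were ELAVL3, ELAVL4, MAP2, STMN2 and NEFM. The summed level of the list was 4319.9 to 5679 CPM in the transition and 5917 to 6219.8 CPM in the terminal phase in Anterior, and 4591 to 5829 and 6904 to 8489 CPM in Posterior. Within the regions 6 of the 17 passed in Anterior and 13 in Posterior, all higher, beside 9.21% and 17.5% of all genes tested.

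Neuronal RNA-binding proteins, which set splicing and mRNA stability in neurons, had 8 of 16 higher and 0 lower (median 0.36). RBFOX1 was at 1.94, 3.37 and 3.39 and then 6.47, 6.52 and 8.13 CPM in Anterior and 1.35, 1.75 and 3.31 and then 10.8, 19.6 and 25.1 CPM in Posterior (2.20 ± 0.38, adjusted p = 0.00211), without overlap. Its relative RBFOX2, already abundant in progenitors, rose by 0.65 ± 0.08, CPEB3, a regulator of local translation, by 1.06 ± 0.13, and CELF6, a splicing regulator, by 1.27 ± 0.19. For these 4 genes all terminal libraries were above all transition libraries.

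Genes of synaptic vesicle release rose as well. Of 21 tested 15 were higher and 1 lower (median 0.71). SV2A, a transporter-like protein of every synaptic vesicle, was at 26.9, 37.2 and 51.0 and then 74.1, 92.1 and 115 CPM in Anterior and, nearly the same, at 27.8, 39.2 and 48.2 and then 73.1, 93.6 and 136 CPM in Posterior (1.34 ± 0.20, adjusted p = 0.00112). CPLX1, a complexin that clamps release, rose by 2.07 ± 0.35 (adjusted p = 0.00179) from 1.07 to 3.52 CPM (medians). PCLO, an active zone scaffold, rose by 1.25 ± 0.38 (adjusted p = 0.026) with overlapping phases, day 8 already standing near day 11. Its call was lost without any 1 of 7 libraries (adjusted p up to 0.064). VAMP1, the vesicle fusion protein of fast-spiking and motor neurons, was the 1 lower member, from 4.87 to 8.01 CPM (median 5.92) in the transition and from 3.96 to 5.31 CPM (median 4.43) in the terminal phase (-0.46 ± 0.13, adjusted p = 0.0168). PCLO and VAMP1 did not pass with 1 value per day (adjusted p from 0.0646 to 0.072).

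On the postsynaptic side 13 of 21 adhesion and scaffold genes were higher and 1 lower (median 0.48). LRFN2, a synaptic adhesion molecule that binds NMDA receptors, was at 4.75, 11.7 and 31.1 and then 55.8, 55.1 and 60.9 CPM in Anterior and 5.25, 8.71 and 11.9 and then 34.7, 34.1 and 55.2 CPM in Posterior (2.06 ± 0.36, adjusted p = 0.00221). DLG2, the scaffold PSD-93, rose by 1.48 ± 0.24, SHANK2 by 1.04 ± 0.18 and LRFN5 by 1.01 ± 0.15, each with every terminal library above every transition library. LRRC4, another adhesion molecule, moved the other way, from 64.5 to 95.3 CPM (median 88.4) in the transition and from 53.2 to 74.8 CPM (median 63.7) in the terminal phase (-0.41 ± 0.10, adjusted p = 0.0116). LRRC4 did not pass with 1 value per day (adjusted p = 0.0752).

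Receptors for both main transmitters rose, but not every subunit. Of 20 glutamate receptor genes 10 were higher and 3 lower (median 0.75). GRIN1, the subunit that every NMDA receptor needs, was at 3.59, 5.96 and 7.68 and then 8.27, 21.1 and 26.2 CPM in Anterior and 4.003, 4.86 and 6.25 and then 12.2, 32.6 and 50.6 CPM in Posterior (2.18 ± 0.39, adjusted p = 0.00229), without overlap. GRIN3A, a subunit of juvenile receptors, separated by phase in Posterior (2.73 to 4.58 CPM in the transition and 16.9 to 64.3 CPM in the terminal phase; 3.20 ± 0.52, adjusted p = 0.00465). It overlapped in Anterior (5.82 to 17.2 CPM in the transition and 14.7 to 21.9 CPM in the terminal phase; 0.70 ± 0.47, adjusted p = 0.365). The difference between its regional changes did not pass (2.50 ± 0.69, adjusted p = 0.196), nor with day as a block (adjusted p = 0.117). The 3 lower genes were GRIN2D (-0.59 ± 0.10, adjusted p = 0.00152), an NMDA subunit that is high early in development, and the kainate receptor subunits GRIK4 (-0.48 ± 0.11, adjusted p = 0.00588) and GRIK5 (-0.35 ± 0.07, adjusted p = 0.00326). GRIN2D ranged from 14.2 to 27.9 CPM (median 20.7) in the transition and from 10.4 to 17.5 CPM (median 14.6) in the terminal phase, so its phases overlapped over both regions but not within either.

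GABA and glycine receptor genes had the second highest median of the lists, with 11 of 15 higher and 0 lower (median 1.18). GLRA2, the glycine receptor subunit of the fetal brain, rose by 2.12 ± 0.32 (adjusted p = 0.00116), with every terminal library above every transition library. GABBR2, described above, belongs to the same list.

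Of 22 voltage-gated channels and chloride transporters 13 were higher and 3 lower (median 0.61). The L-type calcium channel gene CACNA1C was at 22.8, 36.6 and 37.7 and then 75.3, 97.9 and 132 CPM in Anterior and 26.4, 38.2 and 42.8 and then 89.0, 118 and 152 CPM in Posterior (1.70 ± 0.19, adjusted p = 0.000512). The sodium channel subunit SCN3B rose by 1.34 ± 0.18. KCNC1, a potassium channel of fast-firing neurons, rose by 0.99 ± 0.20 (adjusted p = 0.004). The chloride transporters that set the sign of the GABA response moved apart. SLC12A5 (KCC2), which exports chloride, was at 5.36, 7.28 and 7.91 and then 9.86, 17.7 and 24.1 CPM in Anterior and 4.21, 5.06 and 6.32 and then 10.6, 19.9 and 25.7 CPM in Posterior (1.59 ± 0.26, adjusted p = 0.00152). SLC12A2 (NKCC1), which imports it, was at 73.1, 73.0 and 47.4 and then 59.8, 51.6 and 46.8 CPM and 78.8, 82.8 and 54.9 and then 49.3, 42.4 and 38.1 CPM (-0.51 ± 0.15, adjusted p = 0.0199), with Posterior separating by phase and Anterior overlapping. Its call was lost without Posterior day 14 or Posterior day 17 (adjusted p up to 0.0516). Per length of gene SLC12A2 was the more abundant in both phases, at 10.1 ± 2.14 and then 7.04 ± 0.975 RPKM, against 0.931 ± 0.207 and 2.79 ± 1.05 RPKM for SLC12A5 (reads scaled to gene length and library size, mean ± SD, n = 6 each). The other 2 lower genes were the channels KCNH7 (-0.62 ± 0.14, adjusted p = 0.00699) and SCN1A (-0.54 ± 0.15, adjusted p = 0.0156). SLC12A2 did not pass with 1 value per day (adjusted p = 0.086).

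**Figure D2:**
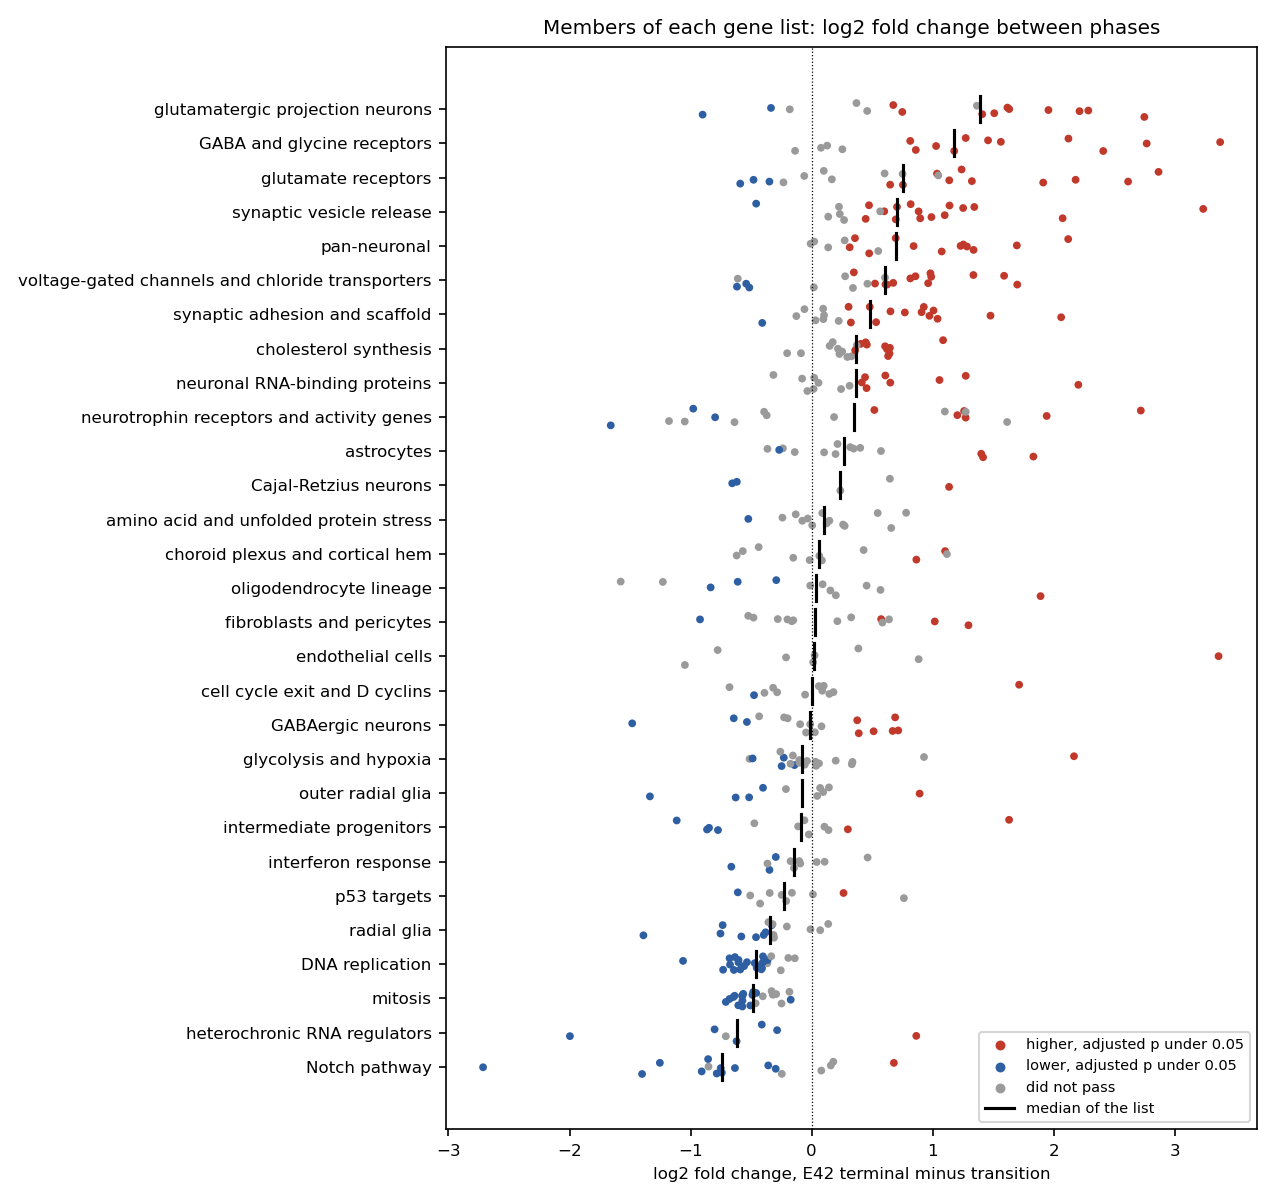
Log2 fold change, terminal minus transition, of each tested member of 29 gene lists with at least 5 tested members (points; red higher and blue lower at an adjusted p under 0.05, grey did not pass), with a black bar at each list's median. Glutamatergic projection neuron and GABA and glycine receptor genes have the highest medians (1.39 and 1.18), and Notch pathway and heterochronic genes the lowest (-0.74 and -0.62).

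Genes that mark classes of neuron split. Of 16 markers of glutamatergic projection neurons 10 were higher and 2 lower (median 1.39), the highest median of any list. CUX2, a transcription factor of upper-layer neurons, was at 1.04, 1.09 and 1.57 and then 4.70, 5.07 and 7.38 CPM in Anterior and at 5.61, 10.5 and 19.98 and then 65.4, 110.3 and 124 CPM in Posterior (2.75 ± 0.32, adjusted p = 0.000594). NEUROD2, a factor of postmitotic excitatory neurons, was at 1.88, 2.13 and 1.94 and then 5.51, 7.30 and 10.7 CPM and 7.04, 12.04 and 19.9 and then 58.2, 82.2 and 81.3 CPM (2.29 ± 0.25, adjusted p = 0.000502). In both genes the terminal level in Posterior was several times that in Anterior. SLA rose by 2.21 ± 0.46 and BHLHE22, a factor that shapes area identity, by 1.96 ± 0.31. FEZF2, the determinant of deep-layer subcerebral neurons, which is also expressed in early radial glia, fell, from 26.7 to 72.2 CPM (median 44.5) in the transition and from 15.2 to 37.5 CPM (median 26.1) in the terminal phase (-0.90 ± 0.21, adjusted p = 0.00755). SOX5, another deep-layer factor, fell too (-0.34 ± 0.08, adjusted p = 0.0101). The summed level of the list in Posterior was 513 to 595 to 886 to 1163 CPM. In Anterior it was 368 to 445 and then 329.8 to 387 CPM, a sum that rests mostly on its abundant members, SOX5 among them. SOX5 did not pass with 1 value per day (adjusted p = 0.0555).

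GABAergic markers showed no common direction. Of 17 tested 6 were higher and 3 lower (median -0.01), beside 15% higher and 14.3% lower of all genes tested. ERBB4, the neuregulin receptor of interneurons, rose by 0.67 ± 0.13 (adjusted p = 0.00274). SCGN, a calcium-binding protein of newborn interneurons, rose by 0.72 ± 0.23 (adjusted p = 0.0334), a call lost without any 1 of 10 libraries (adjusted p up to 0.0769). The factors that open the interneuron programme in progenitors fell. DLX5 was at 125, 149 and 119.8 and then 91.8, 89.2 and 85.4 CPM in Anterior and 146, 158 and 135 and then 107, 85.9 and 73.0 CPM in Posterior (-0.64 ± 0.09, adjusted p = 0.000845). DLX2 ranged from 219 to 279 CPM (median 256) in the transition and from 149.9 to 201 CPM (median 172) in the terminal phase (-0.53 ± 0.08, adjusted p = 0.00133), and neither gene's phases overlapped. NPY, the neuropeptide of a class of interneurons, fell by 1.48 ± 0.29 (adjusted p = 0.0033) at levels of at most 10.1 CPM. GAD1 and GAD2, which make GABA, did not pass (-0.09 ± 0.08, adjusted p = 0.404, and -0.20 ± 0.10, adjusted p = 0.138), and the count lower was 5 without Anterior day 6. SCGN did not pass with 1 value per day (adjusted p = 0.0949).

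Markers of intermediate progenitors, the dividing cells between radial glia and excitatory neurons, had 2 of 12 higher and 4 lower (median -0.09). Of all genes tested 15% were higher and 14.3% lower. The median of the list was 0.26 in Anterior and -0.57 in Posterior. The region difference passed for 0 of the 12, and with day as a block for 2, both with the higher change in Posterior. The lower genes were DLL3 (-1.11 ± 0.19, adjusted p = 0.00187), a Notch ligand relative, BTG2 (-0.86 ± 0.15, adjusted p = 0.00196), an antiproliferative gene of neurogenic divisions, HES6 (-0.85 ± 0.22, adjusted p = 0.0136) and GADD45G (-0.77 ± 0.10, adjusted p = 0.000766). PPP1R17 rose, from 1.80, 3.57 and 3.47 to 9.31, 19.8 and 25.5 CPM in Anterior and from 22.3, 22.6 and 14.7 to 39.9, 32.5 and 29.9 CPM in Posterior (1.63 ± 0.37, adjusted p = 0.00683). ELAVL2, an RNA-binding protein of newborn neurons, rose as well (0.30 ± 0.07, adjusted p = 0.00644). EOMES, the defining factor of these cells, did not pass (0.14 ± 0.12, adjusted p = 0.406). Of 5 tested Cajal-Retzius genes RELN, the secreted guide of neuronal migration, rose (1.14 ± 0.22, adjusted p = 0.00348). TP73 fell (-0.62 ± 0.18, adjusted p = 0.0206), and so did EBF3 (-0.66 ± 0.21, adjusted p = 0.0306), with a call lost without any 1 of 8 libraries (adjusted p up to 0.0763). HES6, ELAVL2 and EBF3 did not pass with 1 value per day (adjusted p from 0.0536 to 0.115).

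Progenitor genes fell, led by Notch signalling. Of 17 Notch pathway genes 11 were lower and 1 higher (median -0.74). Among the ligands, DLL1 was at 115, 95.0 and 51.8 and then 33.5, 26.9 and 27.1 CPM in Anterior and 188, 152 and 94.5 and then 73.9, 57.0 and 55.6 CPM in Posterior (-1.40 ± 0.21, adjusted p = 0.00109). The receptor NOTCH3 was at 507, 368 and 211 CPM on days 6, 7 and 8 and 151, 151 and 128 CPM on days 11, 14 and 17 in Anterior and at 370.3, 335 and 196 and then 170.3, 129 and 102 CPM in Posterior (-1.25 ± 0.21, adjusted p = 0.0019). Days 6 and 7 stood highest and the phases did not overlap. Of the targets, HEYL had the largest fall (-2.71 ± 0.26, adjusted p = 0.000387), passing through 20.2, 13.5 and 11.97 and then 2.52, 1.91 and 2.02 CPM in Anterior and from at most 2.60 to at most 0.390 CPM in Posterior. HES5, the target that marks radial glia with active Notch, was at 61.2, 68.7 and 23.8 and then 19.3, 14.6 and 9.93 CPM in Anterior and 46.8, 34.6 and 20.6 and then 17.8, 14.2 and 20.3 CPM in Posterior (-1.39 ± 0.30, adjusted p = 0.00557), without overlap. The ligand JAG2 was the 1 higher gene (0.68 ± 0.19, adjusted p = 0.0167), and DLL4 fell (-0.91 ± 0.31, adjusted p = 0.0443) with a call lost without any 1 of 7 libraries (adjusted p up to 0.099). JAG2 and DLL4 did not pass with 1 value per day (adjusted p from 0.0673 to 0.112).

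Of 16 radial glia markers 8 were lower and 0 higher (median -0.34). Besides HES5, the stem cell regulator NR2E1 fell from a median of 80.0 to 54.7 CPM (-0.75 ± 0.19, adjusted p = 0.0107). The patterning factor EMX2 fell from 48.9 to 33.8 CPM (-0.73 ± 0.17, adjusted p = 0.00701) and NES, the progenitor filament nestin, from 661 to 492 CPM (-0.58 ± 0.13, adjusted p = 0.00704). SOX2, VIM and PAX6 did not pass (-0.20 ± 0.08, -0.01 ± 0.09 and 0.07 ± 0.10). Outer radial glia markers, of the progenitors that leave the ventricular surface, had 1 of 10 higher and 4 lower (median -0.08). The share over all genes tested was 15% higher and 14.3% lower. MOXD1 rose (0.89 ± 0.17, adjusted p = 0.00321). The matrix protein TNC (-1.34 ± 0.38, adjusted p = 0.0211), LGALS3 (-0.63 ± 0.13, adjusted p = 0.00405), the receptor phosphatase PTPRZ1 (-0.52 ± 0.14, adjusted p = 0.0174) and the integrin ITGB5 (-0.40 ± 0.13, adjusted p = 0.0389) fell. HOPX did not pass (-0.21 ± 0.13, adjusted p = 0.24). TNC passed through 1251, 1514 and 417 and then 289, 258 and 192 CPM in Anterior and 419, 648 and 246 and then 264, 252 and 372 CPM in Posterior, overlapping in the latter. Calls were lost for TNC without Anterior day 14 or Anterior day 17 (adjusted p up to 0.0574) and ITGB5 without any 1 of 8 libraries (adjusted p up to 0.0781), and the count lower was 2 without Anterior day 17. TNC, PTPRZ1 and ITGB5 did not pass with 1 value per day (adjusted p from 0.0533 to 0.101).

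Cell cycle genes fell. Of 24 DNA replication genes 19 were lower and 0 higher (median -0.46), and of 24 mitosis genes 16 were lower and 0 higher (median -0.49). E2F1, the activator of S phase genes, was at 67.9, 49.7 and 36.1 and then 28.1, 34.3 and 19.3 CPM in Anterior and 99.7, 89.1 and 54.1 and then 38.7, 36.1 and 30.2 CPM in Posterior (-1.06 ± 0.19, adjusted p = 0.00265). MCM3, of the replicative helicase, ranged from 72.0 to 129 CPM (median 97.2) in the transition and from 42.3 to 67.4 CPM (median 63.6) in the terminal phase (-0.73 ± 0.14, adjusted p = 0.00358), with no overlap. CDT1, which loads that helicase, fell by 0.67 ± 0.13 and CDC45, which activates it, fell by 0.68 ± 0.17. FOXM1, the regulator of the mitotic programme, was at 108, 83.4 and 64.4 and then 69.4, 53.5 and 55.9 CPM in Anterior and 140.2, 118 and 93.2 and then 68.1, 63.6 and 56.5 CPM in Posterior (-0.71 ± 0.14, adjusted p = 0.00366). The kinases AURKB and AURKA and the anaphase activator CDC20 fell by 0.68 ± 0.12, 0.65 ± 0.14 and 0.64 ± 0.14. Within Anterior 0 of the 48 passed, and within Posterior 22 replication and 18 mitosis genes did, beside 9.21% and 17.5% of all genes tested. Their medians were -0.33 and -0.26 in Anterior and -0.61 and -0.71 in Posterior. The difference between the regions passed for 0 of the 48, and with day as a block for 3 replication genes and 1 mitosis gene, all with the larger fall in Posterior. The 24 mitosis genes together stood at 3336 to 3722 and then 2129 to 2622 CPM in Posterior, and at 2144 to 3151 and then 1780.3 to 2714 CPM in Anterior. CDC45 did not pass with 1 value per day (adjusted p = 0.051).

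Genes of cell cycle exit and D cyclins had 1 of 12 higher and 1 lower, beside 15% higher and 14.3% lower of all genes tested. CCND1, the cyclin that growth factors induce, rose in both regions from very different levels, through 41.9, 44.4 and 51.0 and then 118, 139 and 172 CPM in Anterior and 2.32, 4.63 and 3.67 and then 7.93, 12.5 and 16.8 CPM in Posterior (1.71 ± 0.19, adjusted p = 0.000502). CCND2, the D cyclin most abundant in cortical progenitors, fell, from 964 to 2357 CPM (median 1442) in the transition and from 681 to 1739 CPM (median 1248) in the terminal phase (-0.48 ± 0.14, adjusted p = 0.0211). The inhibitors of cyclin-dependent kinases did not pass, and the count lower ran from 1 to 5 with single libraries left out. Heterochronic RNA regulators, which hold cells in an early developmental state, had 5 of 7 lower and 1 higher (median -0.62). LIN28A, the blocker of let-7 maturation, passed through 0.782, 1.06 and 0.783 and then 0.232, 0.149 and 0.0630 CPM in Anterior and 1.10, 1.65 and 1.45 and then 0.682, 0.479 and 0.226 CPM in Posterior (-2.00 ± 0.31, adjusted p = 0.00127), low throughout but without overlap. The chromatin proteins HMGA2 and HMGA1 changed by -0.80 ± 0.13 and -0.28 ± 0.07, and the RNA-binding proteins IGF2BP2 and IGF2BP3 by -0.62 ± 0.13 and -0.41 ± 0.06. LIN28B, the paralogue of LIN28A, was the 1 higher gene (0.86 ± 0.27, adjusted p = 0.03), at no more than 2.78 CPM. Its call was lost without any 1 of 5 libraries (adjusted p up to 0.0749). CCND2, HMGA1 and LIN28B did not pass with 1 value per day (adjusted p from 0.052 to 0.102).

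Over both regions glial markers passed about as often as genes did in all. Of 14 astrocyte genes 3 were higher and 1 lower (median 0.27), beside 29.3% of all genes tested. SLC1A2, the main glutamate transporter of astrocytes, was at 6.35, 8.20 and 10.6 CPM on days 6, 7 and 8 and 29.0, 28.6 and 25.97 CPM on days 11, 14 and 17 in Anterior and at 10.5, 17.1 and 25.5 and then 57.0, 71.8 and 70.8 CPM in Posterior (1.83 ± 0.19, adjusted p = 0.000394). All terminal libraries stood above all transition libraries. AQP4, the water channel of astrocyte endfeet, rose in Posterior, through 16.5, 28.4 and 24.3 and then 78.4, 109.5 and 176 CPM, and overlapped in Anterior, at 29.1, 63.7 and 26.9 and then 59.1, 48.4 and 52.3 CPM (1.40 ± 0.39, adjusted p = 0.0195 over both). SPARCL1, a synapse-promoting matrix protein, rose in Posterior from at most 2.42 to 23.98 CPM (2.64 ± 0.46, adjusted p = 0.00617). It was at 113 to 115 CPM in the transition and 132 to 218 CPM in the terminal phase in Anterior (0.57 ± 0.37, adjusted p = 0.35). CLU fell slightly (-0.27 ± 0.09, adjusted p = 0.0499), and GFAP did not pass (0.40 ± 0.15, adjusted p = 0.0658). Calls were lost for AQP4 without Posterior day 7 (adjusted p up to 0.0524), SPARCL1 without Posterior day 6 or Posterior day 7 (adjusted p up to 0.055) and CLU without any 1 of 9 libraries (adjusted p up to 0.116). Within Posterior 6 of the 14 passed, all higher, and within Anterior 2 were higher and 2 lower. Of all genes tested 17.5% passed in Posterior and 9.21% in Anterior. The region difference passed for 0 of the 14. With day as a block it passed for S100B, APOE and AGT, named here after their values were seen, each with the higher change in Posterior. It did not pass with the block for AQP4 (adjusted p = 0.11) or SPARCL1 (adjusted p = 0.0767). CLU did not pass with 1 value per day (adjusted p = 0.101).

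Oligodendrocyte genes did not rise as a group at E42. Of 12 tested 1 was higher and 3 lower (median 0.04), beside 15% higher and 14.3% lower of all genes tested. Within Anterior 0 were higher and 4 lower (median -0.22), and within Posterior 2 and 1 (median 0.07). Of all genes tested 9.21% passed in Anterior and 17.5% in Posterior. The region difference passed for 1 of the 12, SOX10, which is described below. BCAS1, a gene of newly forming oligodendrocytes, rose by 1.89 ± 0.47 (adjusted p = 0.0104) but reached no more than 4.50 CPM. SOX8, a relative of SOX10, fell (-0.29 ± 0.07, adjusted p = 0.00625). CSPG4, the NG2 proteoglycan of precursors and pericytes, fell (-0.83 ± 0.28, adjusted p = 0.0395) with a call lost without any 1 of 8 libraries (adjusted p up to 0.0882). MOG and MAG, of mature myelin, had too few counts to be tested. For this list the count lower was 5 without Posterior day 8. BCAS1 and CSPG4 did not pass with 1 value per day (adjusted p from 0.0724 to 0.0999).

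Genes of cholesterol synthesis had 10 of 20 higher and 0 lower (median 0.37). MSMO1, a sterol oxidase, was at 79.3, 49.5 and 83.8 and then 117, 161 and 147 CPM in Anterior and 57.6, 48.8 and 75.8 and then 120.2, 142 and 148 CPM in Posterior (1.09 ± 0.14, adjusted p = 0.000813), without overlap and lowest on day 7. INSIG1, a sterol-regulated brake on the pathway, rose by 0.65 ± 0.16 (adjusted p = 0.0115). DHCR7, of the last steps, rose by 0.64 ± 0.21. The call was lost for DHCR7 without any 1 of 8 libraries (adjusted p up to 0.0781). Within each region 3 of the 20 passed, beside 9.21% of all genes tested in Anterior and 17.5% in Posterior. INSIG1 and DHCR7 did not pass with 1 value per day (adjusted p from 0.0519 to 0.0807).

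Glycolysis and hypoxia genes had 1 of 20 higher and 4 lower (median -0.08). Within Anterior 2 were higher and 0 lower, and within Posterior 1 and 3, where 9.21% and 17.5% of all genes tested passed. Their summed level was 2864 to 3227 and then 2724 to 3139.5 CPM in Anterior. In Posterior it was 2743 to 2951 and then 2434 to 2590 CPM, without overlap. For the lists of this paragraph the share over all genes tested was 15% higher and 14.3% lower over both regions. NDRG1, a stress and myelin gene, rose through 20.7, 11.4 and 20.4 and then 23.1, 48.0 and 66.6 CPM in Anterior and 3.60, 4.33 and 7.30 and then 24.5, 44.3 and 53.1 CPM in Posterior (2.17 ± 0.38, adjusted p = 0.00225). The lower genes changed little: GAPDH by -0.25 ± 0.06, PKM by -0.14 ± 0.05, ALDOA by -0.23 ± 0.07 and VEGFA by -0.49 ± 0.16. Calls were lost for ALDOA without any 1 of 7 libraries (adjusted p up to 0.0863), VEGFA without any 1 of 8 libraries (adjusted p up to 0.0913) and PKM without any 1 of 10 libraries (adjusted p up to 0.104). Of 14 genes of amino acid and unfolded protein stress 1 was lower, PHGDH, the entry enzyme of serine synthesis (-0.52 ± 0.10, adjusted p = 0.00316), and 0 were higher. The median of these 14 was 0.30 in Anterior and -0.13 in Posterior. The region difference passed for 0 of them, and with day as a block for 2, both with the lower change in Posterior. HSPA5 and ATF4, the most abundant members, did not pass (0.26 ± 0.12, adjusted p = 0.112, and -0.08 ± 0.13, adjusted p = 0.691), and the count higher was 1 without Anterior day 11 and 4 without Posterior day 8. Of 10 p53 targets SESN1 was higher (0.26 ± 0.06, adjusted p = 0.00734) and BAX, a promoter of apoptosis, lower (-0.61 ± 0.13, adjusted p = 0.00485), and the count lower was 2 without Anterior day 11 or Posterior day 8 and 4 without Anterior day 8. PKM, ALDOA and SESN1 did not pass with 1 value per day (adjusted p from 0.0593 to 0.18).

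Of 18 neurotrophin receptors and activity genes 6 were higher and 3 lower (median 0.35), beside 15% higher and 14.3% lower of all genes tested. Beside NPTX1, NPTX2 rose by 1.27 ± 0.22 and the secreted peptide precursor VGF by 1.94 ± 0.63, with the call of VGF lost without any 1 of 7 libraries (adjusted p up to 0.087). The immediate early genes ARC (-1.66 ± 0.40, adjusted p = 0.00939), EGR1 (-0.98 ± 0.27, adjusted p = 0.0174) and JUNB (-0.80 ± 0.21, adjusted p = 0.0142) fell. Others of this kind, FOS, FOSB, EGR2, EGR3, NR4A1 and NPAS4, did not pass. ARC was at 36.8, 48.6 and 11.3 and then 10.3, 7.02 and 7.22 CPM in Anterior and 21.4, 31.1 and 5.70 and then 7.28, 8.33 and 7.80 CPM in Posterior, so days 6 and 7 stood apart and day 8 was already near the terminal level. With 1 value per day none of ARC, EGR1 and JUNB kept its call (adjusted p from 0.0674 to 0.108, limma). In this list the count lower was 5 without Anterior day 8 and 6 without Posterior day 8. Of 11 interferon response genes 3 were lower and 0 higher (median -0.15), beside 14.3% lower and 15% higher of all genes tested. These were MX1 (-0.66 ± 0.11, adjusted p = 0.00153), IFIT3 (-0.30 ± 0.09, adjusted p = 0.0207) and IRF9 (-0.35 ± 0.11, adjusted p = 0.0277), the last lost without any 1 of 4 libraries (adjusted p up to 0.0628). The summed level of the list rose in Anterior, from 324 to 344 CPM in the transition to 348 to 376 CPM in the terminal phase. In Posterior it fell, from 226 to 270 CPM to 183 to 207 CPM. Within Anterior 1 gene was higher and 1 lower, and within Posterior 0 and 1. The region difference passed for 0 of the 11. VGF, IFIT3 and IRF9 did not pass with 1 value per day (adjusted p from 0.0746 to 0.109).

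Of the cells that a cortical dissection can carry along, fibroblasts, pericytes and endothelium had their markers higher in the Anterior libraries. Between the phases, the counts of the lists in this paragraph stand beside 15% higher and 14.3% lower of all genes tested. Of 14 fibroblast and pericyte genes 3 were higher, POSTN (1.30 ± 0.37, adjusted p = 0.0212; -0.19 in the Posterior libraries alone), FOXC1 (1.02 ± 0.33, adjusted p = 0.0347) and DCN (0.57 ± 0.19, adjusted p = 0.0359). PDGFRB was lower (-0.92 ± 0.28, adjusted p = 0.0268). FOXC1, a transcription factor of the meninges, was at 92.0, 85.8 and 162 and then 222, 267 and 349 CPM in Anterior and at most 0.508 CPM in Posterior, where its change was -1.82 ± 0.76, adjusted p = 0.12. Fitted on the Posterior libraries alone, FOXC1 passed in the opposite direction (-1.84, adjusted p = 0.0285). The direction of FOXC1 over both regions therefore depends on the setting, at -0.06 with 1 value per day and -0.25 in a fit of all 38 libraries. Calls were lost for POSTN without any 1 of 4 libraries (adjusted p up to 0.0722), FOXC1 without any 1 of 4 libraries (adjusted p up to 0.119), DCN without any 1 of 8 libraries (adjusted p up to 0.0903) and PDGFRB without Anterior day 11 or Anterior day 14 or Anterior day 17 (adjusted p up to 0.0652), and the count higher was 0 without Anterior day 7 or Anterior day 14 or Anterior day 17. COL1A1, the main fibroblast collagen, ranged from 4562 to 9157 CPM in Anterior and from 3.07 to 12.1 CPM in Posterior. Of 8 endothelial genes 1 was higher, CDH5, the cadherin of vessel walls, at 2.26, 0.806 and 2.65 and then 12.99, 15.2 and 44.4 CPM in Anterior and at most 0.0765 CPM in Posterior (3.36 ± 0.59, adjusted p = 0.00216). KDR, a receptor for VEGF, did not pass (0.39 ± 0.41, adjusted p = 0.503). The summed endothelial level was 28.0 to 31.5 and then 55.1 to 102 CPM in Anterior. The microglia markers summed to 2.06 to 3.10 and then 2.99 to 3.13 CPM in Anterior and to 4.18 to 5.45 and then 4.79 to 5.24 CPM in Posterior. Of them CD68 alone could be tested and did not pass, and no haemoglobin gene could be. Among 11 genes of choroid plexus and cortical hem 2 were higher, the Wnt amplifiers RSPO2 (1.10 ± 0.21, adjusted p = 0.00262) and RSPO3 (0.87 ± 0.21, adjusted p = 0.0101), and 0 lower. How far these cells take part in the Anterior changes above was not tested. The Posterior changes stood in libraries whose fibroblast and pericyte markers summed to at most 98.2 CPM. POSTN, DCN and PDGFRB did not pass with 1 value per day (adjusted p from 0.0739 to 0.185).

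**Figure D3:**
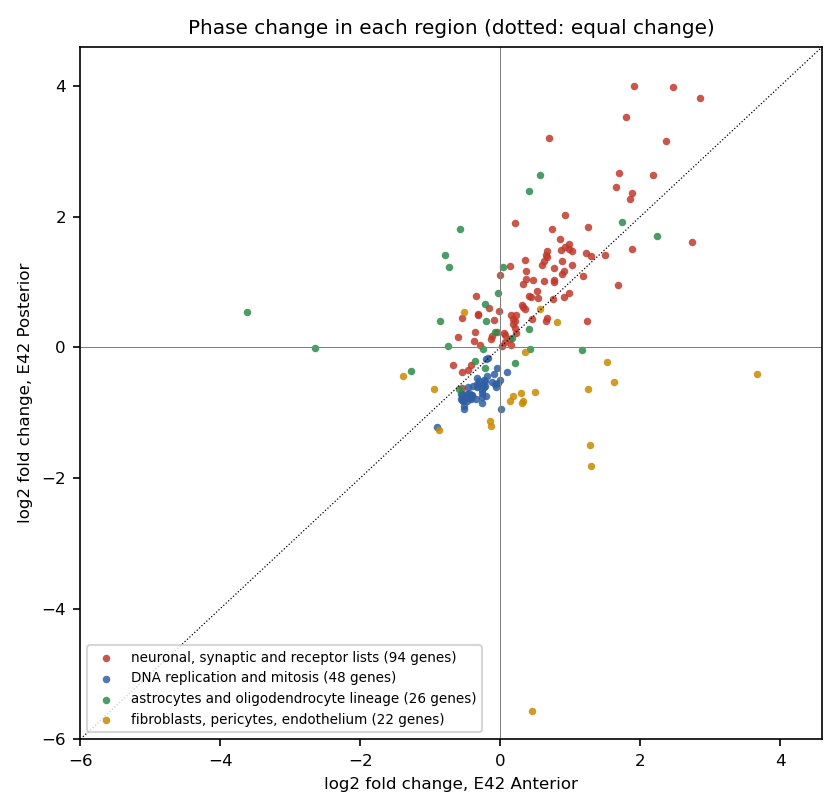
Log2 fold change, terminal minus transition, in E42 Anterior (horizontal) and E42 Posterior (vertical) for members of 11 gene lists in 4 colours, with a dotted line of equal change. Most neuronal, synaptic and receptor genes lie above 0 on both axes, most replication and mitosis genes lie below 0 on both, and SOX10 is the point farthest to the left.

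The change between phases differed between the regions for few genes. A test of the Posterior change minus the Anterior change passed for 12 of 19709 genes (0.0609%), 10 (0.0507%) with the Posterior log2 change above the Anterior one and 2 (0.0101%) below it. Of all genes 1814 had an unadjusted p under 0.05. With day as a block, which removes what both regions share on a day, 224 (1.14%) and 112 (0.568%) genes passed (1.7% in all), among them all 12. Data were simulated as independent libraries of this depth, with a spread set by each gene's mean level and no effect of day. In them the test without the block recovered 46% of genes whose changes differed 2-fold. Few calls therefore do not show that the regions moved alike. Of the 12, 9 with a symbol and at least 10 CPM in a group are described. Without single libraries the 2 counts ran from 0 to 108 and from 0 to 99.

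SOX10, the transcription factor of oligodendrocyte precursors and neural crest, fell in Anterior from 24.6, 25.8 and 15.4 to 1.65, 1.23 and 2.55 CPM (-3.62 ± 0.36, adjusted p = 0.00116). In Posterior it was low in both phases, at 2.88, 3.33 and 1.63 and then 3.41, 2.68 and 5.37 CPM (0.54 ± 0.35, adjusted p = 0.305), and the difference was 4.16 ± 0.50, adjusted p = 0.044. The transcriptional corepressor-binding gene NRIP2 followed the same course, at 16.5, 12.6 and 7.27 and then 2.61, 3.62 and 3.59 CPM in Anterior and 1.38, 2.03 and 2.00 and then 2.99, 2.87 and 3.36 CPM in Posterior (2.66 ± 0.39, adjusted p = 0.044). MN1, a transcriptional regulator, did not pass in Anterior, at 122, 90.3 and 89.1 and then 79.4, 85.4 and 106 CPM (-0.16 ± 0.15, adjusted p = 0.516). In Posterior it rose through 107, 111 and 119 and then 242, 315 and 312 CPM (1.37 ± 0.15, adjusted p = 0.002), with no overlap there. SLC8A1, a sodium-calcium exchanger, crossed over, from 43.5, 34.0 and 24.8 to 20.9, 21.5 and 20.5 CPM in Anterior and from 23.3, 21.6 and 27.7 to 41.2, 46.3 and 53.2 CPM in Posterior (1.66 ± 0.24, adjusted p = 0.044). SORCS3, a sorting receptor of synapses, rose in Posterior (1.59 ± 0.25, adjusted p = 0.00356) and did not pass in Anterior (-0.72 ± 0.25, adjusted p = 0.0862). MATN2, a matrix protein, fell in Anterior and rose in Posterior (-0.76 ± 0.16 and 0.96 ± 0.17). TGFBR3, a coreceptor of TGF-beta, rose in both, from a far higher base in Anterior (60.3 to 69.5 CPM in the transition and 76.0 to 95.8 CPM in the terminal phase) than in Posterior (0.204 to 0.472 CPM in the transition and 1.48 to 2.01 CPM in the terminal phase). Its difference of 1.99 ± 0.28, adjusted p = 0.044, turned to -0.13 on the log2(RPKM + 1) scale. The 2 with the higher change in Anterior were CDON, a coreceptor of Sonic hedgehog, at 169.8, 184 and 195 and then 244, 276 and 269 CPM in Anterior and 177, 159.7 and 159 and then 149.6, 129 and 134 CPM in Posterior (-0.79 ± 0.12, adjusted p = 0.044), and the arylsulphatase ARSI. The difference of ARSI was -3.90 ± 0.59, adjusted p = 0.044 (0.91 ± 0.27, adjusted p = 0.057 in Anterior, and -2.99 ± 0.53, adjusted p = 0.00544 in Posterior). CDON passed in Anterior (0.52 ± 0.09, adjusted p = 0.00898) and not in Posterior (-0.26 ± 0.09, adjusted p = 0.0517). Leaving out single libraries ended each of the 9 calls, with 6 to 8 of the 12 libraries each, and the highest adjusted p over these were 0.139 to 0.184.

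**Figure D4:**
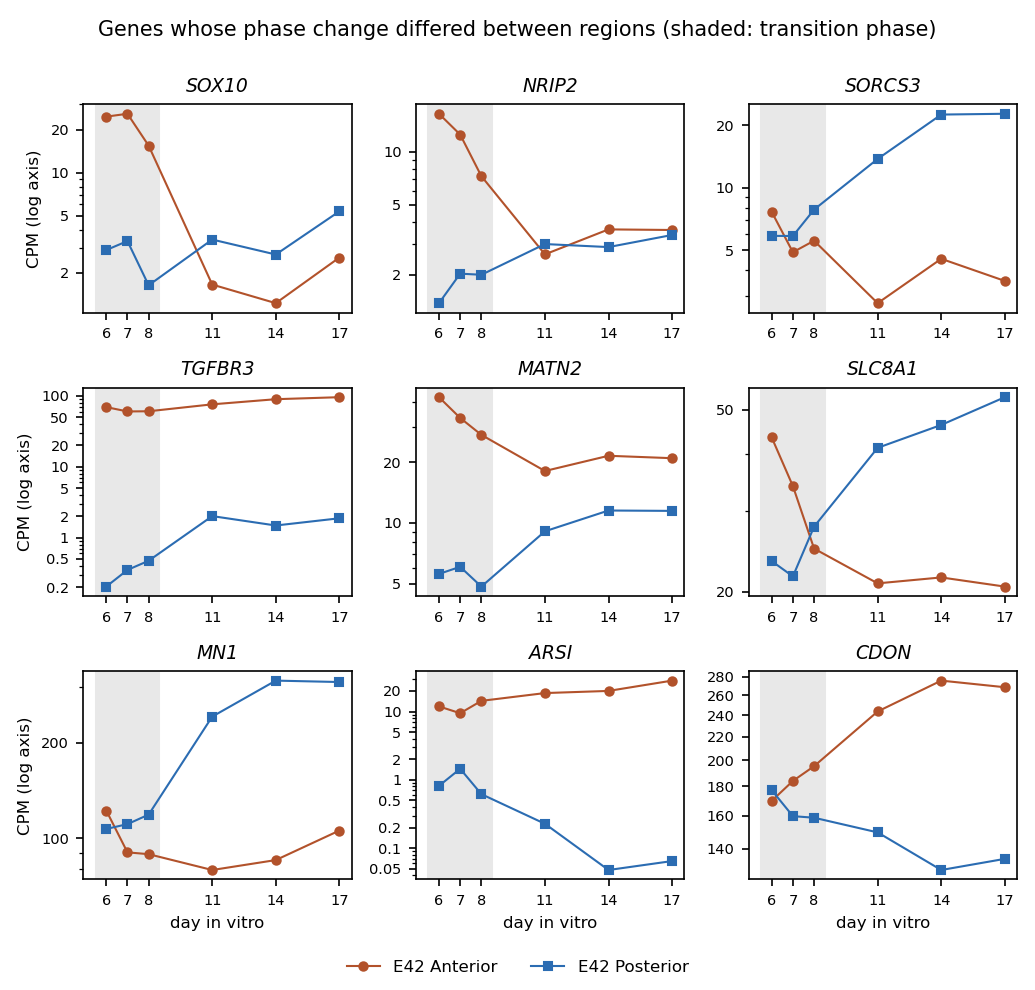
CPM on a log axis against day in vitro for the 9 genes whose phase change differed between regions, circles for E42 Anterior and squares for E42 Posterior, transition days shaded. SOX10, NRIP2, MATN2 and SLC8A1 stood lower on days 11 to 17 in Anterior, and MN1, SORCS3, MATN2 and SLC8A1 stood higher in Posterior. CDON and ARSI stood higher in Anterior and lower in Posterior.

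The E77 cultures, taken later in cortical development and handled alike, gave the change over the same days for comparison. Age cannot be told apart from the fetus or the culture run. At E77 3489 genes (17.2%) passed with a higher and 3200 (15.8%) with a lower terminal level, 33% of 20300. The E42 change minus the E77 change passed for 331 genes (1.63%) with the higher log2 change at E42 and for 455 (2.24%) with the higher change at E77, together 3.87%. At an unadjusted p under 0.05 there were 4589, and on the log2(RPKM + 1) scale with limma 424 and 275 passed. With day as a block 1194 (5.88%) and 1592 (7.84%) passed, together 13.7%, and 751 of the 786 were among them. The fit with the block also held 1 change for both regions of an age, which the fit without it did not. Its counts here and below therefore cannot be laid to the block alone. Counts without the block also moved with day 11 left out, to 1992 and 2002, and in the Posterior and Occipital libraries alone, to 29 and 14. In the Anterior and Frontal libraries alone they were 42 and 28, and each of these pairs holds 12 of the 24 libraries. Of the 16 genes named below, 2 (NTNG2 and NKAIN4) kept their call in Posterior and Occipital alone, with adjusted p from 0.0533 to 0.409 for the other 14, and 8 kept it in Anterior and Frontal alone.

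Genes of the oligodendrocyte lineage moved differently at the 2 ages. At E77 10 of its 12 genes rose and 0 fell (median 1.91), against 1 and 3 at E42. The age difference passed for 7, all with the higher change at E77 (10 with day as a block). CPM values of both ages use the library sizes of the joint fit. SOX10 ranged from 1.65 to 26.3 CPM in the transition and from 1.26 to 5.28 CPM in the terminal phase at E42, and from 6.59 to 24.1 and 15.3 to 198 CPM at E77 (difference of log2 changes -4.28 ± 0.51, adjusted p = 0.000198). MBP, the myelin basic protein gene, reached 7.57 to 142 CPM in the E77 terminal libraries and 1.17 to 4.11 CPM at E42 (-3.81 ± 0.87, adjusted p = 0.0201). GPR17, a receptor of committed precursors, and CSPG4 differed by -3.23 ± 0.64, adjusted p = 0.00868, and -2.77 ± 0.44, adjusted p = 0.00302. ERBB3 fell at E42 and rose at E77 (-2.46 ± 0.30 and 0.80 ± 0.26), and so did NKAIN4 (-1.70 ± 0.24 and 1.35 ± 0.23). At E42 NKAIN4 was at 17.9, 17.3 and 7.94 and then 3.60, 3.32 and 3.06 CPM in Anterior and 37.5, 28.9 and 23.2 and then 15.2, 11.7 and 10.3 CPM in Posterior. ACAN, the proteoglycan aggrecan, and WSCD2 had log2 changes of -1.09 ± 0.48 and -0.21 ± 0.41 at E42 and of 2.74 ± 0.42 and 4.09 ± 0.78 at E77.

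For 8 of the 16 genes named for their age difference the log2 change was the higher at E42. NTNG2, a netrin-family adhesion molecule of cortical neurons, rose at E42 (1.62 ± 0.20) and fell at E77 (-1.28 ± 0.20), with a difference of 2.90 ± 0.29, adjusted p = 3.56e-05. Its 6 terminal libraries at E42 reached 6.53 to 18.3 CPM, against 2.55 to 6.85 CPM in the transition. The cadherin CDH12 went up at E42 (0.840, 1.24 and 2.20 and then 4.87, 8.54 and 8.51 CPM in Anterior and 0.484, 0.801 and 2.18 and then 4.51, 13.2 and 18.2 CPM in Posterior) and stayed at 0.123 to 2.17 CPM in the terminal phase at E77 (2.92 ± 0.65, adjusted p = 0.0168). RYR2, a calcium release channel, rose at E42 (1.36 ± 0.41) and fell at E77 (-2.06 ± 0.43). PAK6, a kinase, rose at E42 (1.81 ± 0.46) with the day 14 libraries standing apart at 11.9 CPM in Anterior and 30.5 CPM in Posterior. Its E77 change was -1.29 ± 0.50. IGF1, a growth factor, was higher in the terminal phase of Anterior (2.09 to 3.21 CPM in the transition and 10.1 to 15.98 CPM in the terminal phase). Its age difference (3.54 ± 0.80, adjusted p = 0.0175) was lost without E77 Occipital day 6 (adjusted p up to 0.0653). COL1A2, THSD4 and PENK did not pass at E42 and fell at E77 by 4.62 ± 0.51, 3.78 ± 0.47 and 3.12 ± 0.51 on the log2 scale. COL1A2, a fibrillar collagen, stood at up to 7321 CPM at E42 in Anterior, with at most 10.1 CPM in Posterior, and at up to 80.7 CPM at E77.

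**Figure D5:**
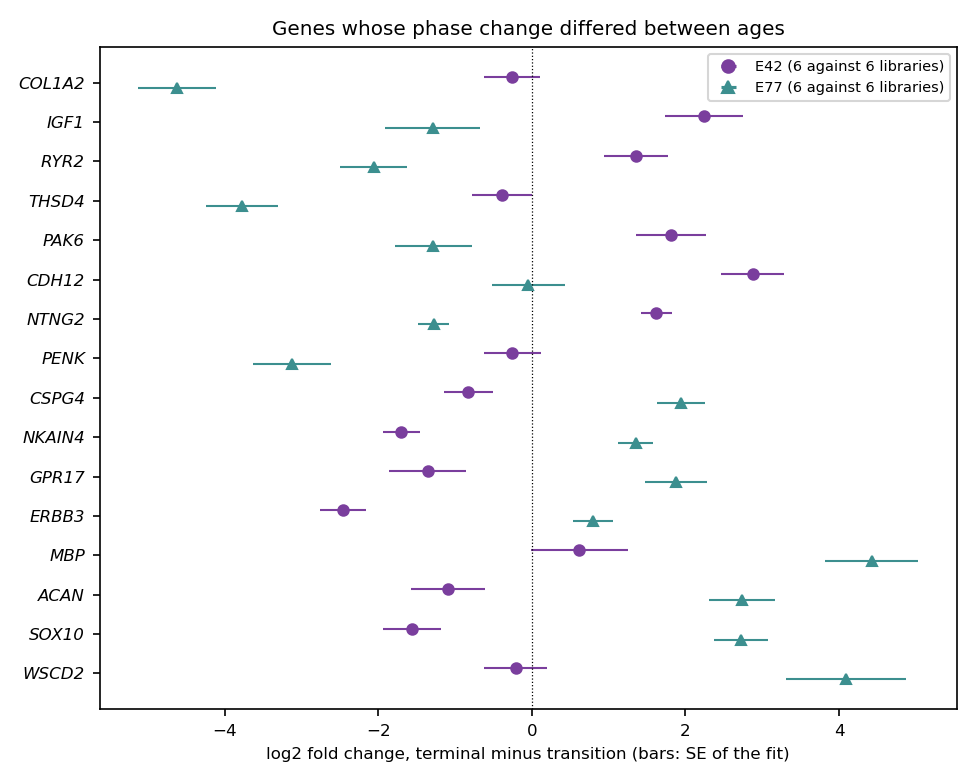
Log2 fold change, terminal minus transition, with the SE of the fit, for the 16 genes named for their difference between ages, circles for E42 and triangles for E77 (6 against 6 libraries each). SOX10, ERBB3, NKAIN4 and CSPG4 lie below 0 at E42 and above 0 at E77, and NTNG2 and RYR2 lie above 0 at E42 and below 0 at E77.

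Without the block, other groups had at most 5 genes with an age difference. With day as a block the synaptic adhesion and scaffold genes had 3 with the higher change at E42 and 7 with the higher change at E77 (2 and 2 without it). The Notch pathway had 0 and 8 (0 and 3 without it) and the pan-neuronal genes 0 and 7 (0 and 0 without it). Cholesterol synthesis and DNA replication had 0 genes with an age difference, with medians of 0.37 and -0.46 at E42 and 0.61 and -0.62 at E77. Mitosis had 0 without and 5 with day as a block, each with the larger fall at E77. For the counts that follow, the share over all genes tested was 17.2% higher and 15.8% lower at E77. At E42 it was 15% and 14.3%. Among 16 glutamatergic genes 4 rose and 3 fell at E77 (median 0.59), against 10 and 2 at E42. Their age difference passed for 2 genes with the higher change at E42 and 1 with the higher change at E77 (5 and 1 with the block). GABAergic genes had 9 higher and 4 lower at E77, and the difference passed for 0 and 1 (1 and 7 with the block). Astrocyte genes had 10 higher and 0 lower at E77, and the difference passed for 1 and 3 (0 and 3 with the block).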

How the data were processed

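Bulk RNA-seq libraries of rhesus macaque cortical cultures were measured as read counts per gene, which the authors deposited with RPKM values for the same libraries. The authors aligned reads with STAR and counted them with featureCounts, per the submitters' processing notes. The genome build, annotation, strand setting and versions are not given in the sources used here, so reads of overlapping or antisense genes cannot be told apart. The deposited table lists 34619 genes under symbols or LOC names. No sequence is printed, because no genome of the files' build was used here.

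Counts were tested with edgeR 4.0.16 in R 4.3.3 (filterByExpr, TMM factors of 0.938 to 1.06, robust quasi-likelihood F test with region as a block, Benjamini-Hochberg adjustment over all 19709 tested genes, threshold 0.05). The residual degrees of freedom were 9 for the phase, 8 for the region difference and 16 for the age difference (20300 tested genes). The other 14910 genes had too few counts in the E42 libraries. The standard error is the size of the log2 fold change divided by the square root of F. CPM values use the TMM library sizes. RPKM values as deposited by the authors were used for levels per length and as log2(RPKM + 1) or log2(RPKM + 0.1) in limma 3.58.1, for genes with at least 1 RPKM in at least 3 libraries.

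The members and the gene lists were chosen with earlier results of these data known. Named genes were the 12 largest rises and falls with a symbol, at least 10 CPM in the higher phase and no overlap within either region, up to 4 passing members of each list with the largest change and up to 3 against its majority, up to 2 members of highest CPM where fewer than 2 passed, and the 8 largest region and age differences in each direction at 10 CPM or more. ITGB5, GADD45G, IGF2BP3, HMGA1, PKM, the immediate early genes that did not pass and defining markers such as GAD1, GAD2, EOMES, HOPX, GFAP, SOX2, PAX6, VIM and COL1A1 were named outside this rule, after their values were seen. Some genes that the rule names are not reported here, but the counts and medians of their lists include them.

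Libraries of the 2 regions on the same day partly shared their deviations from the phase means of their region (correlations of 0.300, 0.252, 0.419, 0.226, 0.191 and 0.194 for days 6, 7, 8, 11, 14 and 17). Each Anterior library correlated best with the Posterior library of its own day, among the 3 of its phase, on 6 of 6 days. Deviations from a mean of 3 libraries sum to 0, which by itself lowers correlations between different days. Because of the same-day correlations, day was also fitted as a block. For the age difference the fit with the block held 1 change for both regions of an age. Among 66 pairs of E42 libraries the lowest ratio of the spread to sampling noise was 10.5, and 0 were under 1.5, so no library was a repeat of another. On simulated counts the phase test recovered 78, 96, 100 and 100% of genes changed by 1.5, 2, 4 and 8 times (8 false calls among 19482 genes), and the region test 10, 46, 90 and 100% (6 false calls among 19472 genes). The simulated libraries were independent, without trends over days or days shared between regions. Their spread followed the mean level of a gene, and the changed genes were drawn from the more abundant ones. These rates and false calls therefore need not hold for the real libraries. Alternatives were DESeq2 1.42.0 size factors and Wald test, no filter, the RPKM scales, all 38 libraries in 1 fit, no region block, 1 value per day, each region alone, day 11 or each library left out, day as a block, and day 20 kept. Chosen after seeing the data were the age difference in each pair of regions alone and limma without the day block.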

Additional observations from a re-analysis of the deposited data

Results flagged for a closer look

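The phase change of 9 named genes differed between the Anterior and Posterior cultures by the edgeR test of the difference itself. The Posterior log2 change minus the Anterior one was above 0 for SOX10 (4.16), NRIP2 (2.66), SORCS3 (2.31), TGFBR3 (1.99), MATN2 (1.72), SLC8A1 (1.66) and MN1 (1.52), and below 0 for ARSI (-3.90) and CDON (-0.79). Each of these 9 calls was lost with 6 to 8 of the 12 libraries when these were left out singly.

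The phase change of 16 named genes differed between E42 and E77 by the same kind of test. The E42 log2 change minus the E77 one was above 0 for COL1A2 (4.36), IGF1 (3.54), RYR2 (3.42), THSD4 (3.39), PAK6 (3.10), CDH12 (2.92), NTNG2 (2.90) and PENK (2.87), and below 0 for WSCD2 (-4.30), SOX10 (-4.28), ACAN (-3.83), MBP (-3.81), ERBB3 (-3.26), GPR17 (-3.23), NKAIN4 (-3.05) and CSPG4 (-2.77). IGF1 lost its call without E77 Occipital day 6 (edgeR adjusted p = 0.0653), and the other 15 kept theirs with each library left out in turn. In the Posterior and Occipital libraries alone 14 of the 16 lost their call, and in the Anterior and Frontal libraries alone 8 of the 16 did.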

How the results depend on the processing

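For the phase comparison, 2952 genes higher and 2827 lower became 1269 and 1079 with no region block, 1618 and 1160 with 1 value per day, 563 and 408 in the Anterior libraries alone and 1732 and 1302 in the Posterior libraries alone. The other alternatives run kept both counts within 1.5 times, with 2215 and 1938 for day as a random replicate block (correlation 0.274). Without single libraries the 2 counts ran from 2271 to 3233 and from 2126 to 3384. With 1 value per day 36 of the genes followed singly lost their call, and those named are given with their groups. With single libraries left out, 121 of 144 such genes kept their side of the threshold.

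For the region difference, 10 higher and 2 lower became 188 and 220 with the DESeq2 Wald test, 24 and 33 with all 38 libraries, 70 and 70 without day 11 and 224 and 112 with day as a fixed replicate block. The lower count was 4 with no filter and 1 on log2(RPKM + 1), and both were 0 on log2(RPKM + 0.1) with limma, where edgeR had 1814 genes at an unadjusted p under 0.05. Without single libraries the counts ran from 0 to 108 and from 0 to 99, with 0 and 0 without Anterior day 6, 7 or 14 or Posterior day 6, 7 or 17, and the highest without Anterior day 8. None of the 9 named genes kept its call without every single library.

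For the age difference, 331 higher and 455 lower at E42 became 693 and 802 with the DESeq2 Wald test, 543 and 690 with all 38 libraries, 1992 and 2002 without day 11, 1194 and 1592 with day as a fixed replicate block, 574 and 934 with day 20 kept, 29 and 14 in the Posterior and Occipital libraries alone and 42 and 28 in the Anterior and Frontal libraries alone. The lower count was 265 with no filter, 275 and 227 on log2(RPKM + 1) and log2(RPKM + 0.1), and 248 on log2(RPKM + 1) with no filter. Without single libraries the counts ran from 171 to 1662 and from 215 to 1840, the highest without E77 Occipital day 11.

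The direction turned for FOXC1 (-0.25 with all 38 libraries, -0.0628 with 1 value per day and in limma with and without the random replicate block, -1.84 in the Posterior libraries alone), TGFBR3 (region difference -0.13 on log2(RPKM + 1), with and without the filter), ATF4 (0.0805 in the Anterior libraries alone), and POSTN (-0.19) and KDR (-0.64) in the Posterior libraries alone. The cause was not tested. In counts simulated as independent libraries of this depth, without any effect of day, region differences of 1.5 times were recovered in 10% of genes.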
